A study of Mus musculus with 8 samples.

Results

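Forkhead (Fox) genes encode transcription factors that share a winged-helix DNA-binding domain. They were taken from the arrays as genes whose single symbol begins with Fox, a subfamily letter from a to s and a digit. The rule found 38 genes, represented by 83 probe sets, among the 18193 genes tested. Of these, 37 were protein-coding forkhead genes and 1, Foxl2os, was a transcript named for its place opposite Foxl2. Several probe sets existed for 21 of the genes, and each gene was followed through its brightest probe set, by the mean of all 8 arrays, with the others given beside it. The rule itself uses symbols and not the difference between the tissues.

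Before birth the ductus arteriosus carries blood past the lungs, from the pulmonary artery into the aorta, and it shuts once breathing begins. Its RNA was compared with that of the aorta on 4 ductus and 4 aorta arrays, on day 19 of gestation. All animals were labelled as CD88 wild type mice with no treatment, and the replicates were labelled as biological. Each array held a pool of vessel segments from up to 10 pups of a single pregnant female, so an array stands for a litter and not for a pup.

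Forkhead factors act in the tissues from which the great vessels and their surroundings form. Foxf1 is a Hedgehog-responsive factor of lung and gut mesenchyme, and in humans its loss disturbs the vessels of the lung. Foxc1 and Foxc2 act in neural crest and mesoderm, and mice that lack them have defects of the aortic arch, while Foxo factors are held in check by insulin and Akt signalling.

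Values are log2 expression levels throughout, and differences are ductus minus aorta. The median of an array was 4.36 to 4.42, and its first quartile 2.74 to 2.86. Pairs of arrays from 1 tissue correlated at 0.986 to 0.992 over genes, and pairs of a ductus and an aorta array at 0.979 to 0.987. Markers of smooth muscle averaged 10.32 to 10.74 on the ductus arrays and 9.34 to 9.95 on the aorta arrays, and 4 of 9 (Actg2, Myh11, Mylk and Cnn1) were higher in the ductus. Of 12 mesothelial markers 9 were lower in the ductus, with means of 6.73 to 7.33 on ductus arrays and 7.97 to 9.39 on aorta arrays. Of 13 endothelial markers 3 (Tek, Cldn5 and Pecam1) were lower in the ductus. The 13 averaged 7.30 to 7.52 on ductus arrays and 7.69 to 8.13 on aorta arrays. Erg was the 1 marker of that list with a positive difference, at 0.73, without overlap and not called (limma adjusted p = 0.0595). Over all genes, 1.8% were called higher in the ductus and 2.06% higher in the aorta. Since the samples are whole tissue, a lower level may mean fewer cells of a type or less RNA per cell, and the arrays cannot tell these apart.

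Of the 38 genes, 2 were called higher in the ductus, Foxf1 and Foxd1, and 0 were called higher in the aorta (limma, Benjamini-Hochberg adjusted p under 0.05 over all genes). The 2 genes are 5.26% of the members, beside 3.86% of all genes tested, made up of 1.8% with the ductus higher and 2.06% with the aorta higher. At an unadjusted p under 0.05, 7 of the 38 members passed, 6 higher in the ductus and 1 higher in the aorta. That share is near the 16.1% of all genes that passed. All 4 ductus values lay on one side of all 4 aorta values in 8 members (21.1%), with the ductus above in 6 and the aorta above in 2. Over all genes the share was 11.3%, with the ductus above in 5.23% and the aorta above in 6.06%. The median difference of the members was 0.014, against -0.032 for all genes, and 36 of the 38 differed by less than 0.5 in either direction.

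**Figure D1:**
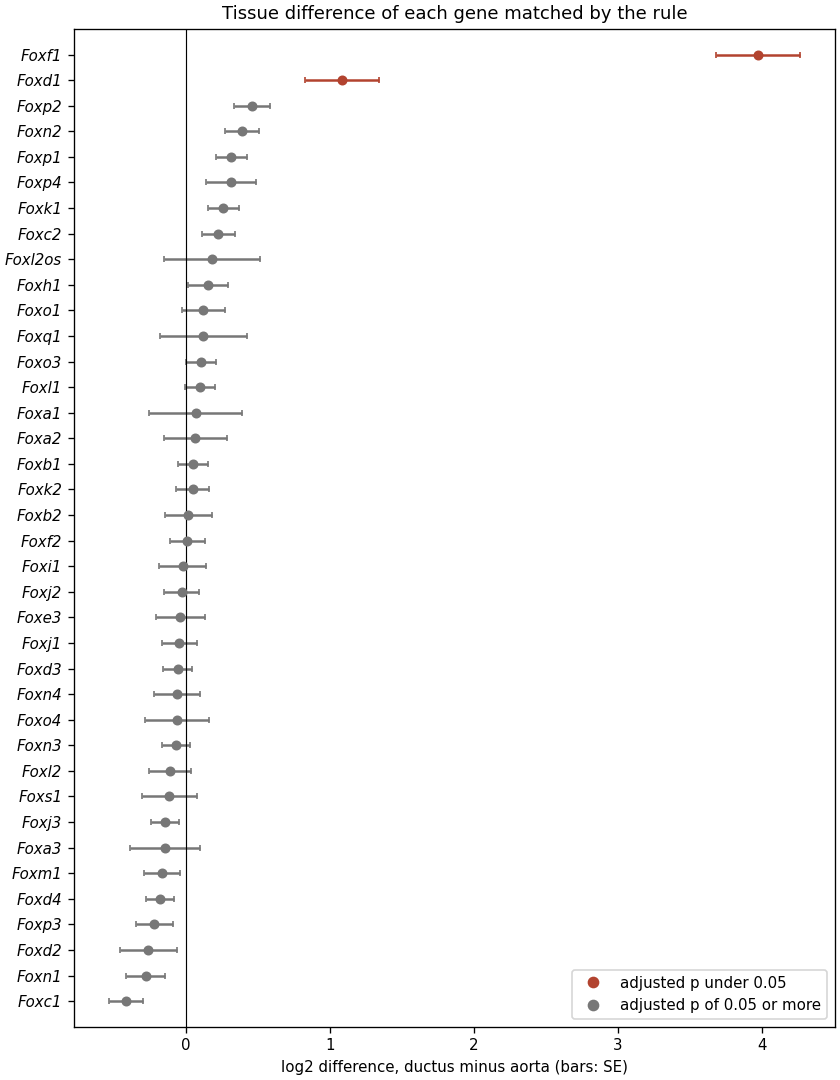
Log2 difference between ductus and aorta (x axis) for each of the 38 genes (rows, ordered by difference); points are limma estimates, bars are standard errors, and red marks an adjusted p under 0.05. Foxf1 stands at 3.97 and Foxd1 at 1.08, and the other members lie between -0.41 (Foxc1) and 0.46 (Foxp2).

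Where the reference held a window, the bases before the start of transcription are shown for the genes on which the account turns. They are the gene beside Foxf1 that moved with it (Fendrr), the other member called (Foxd1), the member nearest to a call in favour of the aorta (Foxc1), and the paralogue of Foxf1 (Foxf2). Each is the 250 bases upstream of the start, 5′ to 3′ on the gene's strand, from RefSeq (GRCm38.p6), with 1 kind of motif match per window in capitals.
Fendrr: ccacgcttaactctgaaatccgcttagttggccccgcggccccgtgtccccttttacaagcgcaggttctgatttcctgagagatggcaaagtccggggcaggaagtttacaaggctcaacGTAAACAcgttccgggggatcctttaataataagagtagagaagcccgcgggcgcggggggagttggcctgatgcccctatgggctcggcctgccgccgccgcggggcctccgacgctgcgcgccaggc
Foxd1: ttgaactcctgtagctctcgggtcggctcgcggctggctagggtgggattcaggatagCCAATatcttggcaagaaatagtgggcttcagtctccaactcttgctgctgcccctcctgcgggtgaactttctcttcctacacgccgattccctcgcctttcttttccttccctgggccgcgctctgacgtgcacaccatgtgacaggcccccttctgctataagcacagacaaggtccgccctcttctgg
Foxc1: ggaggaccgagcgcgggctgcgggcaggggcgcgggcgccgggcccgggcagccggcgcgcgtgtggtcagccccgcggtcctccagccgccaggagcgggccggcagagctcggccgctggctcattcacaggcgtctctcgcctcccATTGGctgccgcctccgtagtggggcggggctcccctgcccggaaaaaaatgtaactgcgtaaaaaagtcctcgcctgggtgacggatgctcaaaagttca
Foxf2: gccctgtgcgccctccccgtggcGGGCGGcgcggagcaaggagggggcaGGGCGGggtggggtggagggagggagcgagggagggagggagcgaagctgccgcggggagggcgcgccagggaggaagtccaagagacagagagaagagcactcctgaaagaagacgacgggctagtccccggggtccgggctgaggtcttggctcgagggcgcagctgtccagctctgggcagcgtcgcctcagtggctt

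These windows lie at chr8:121083111-121083360 on the minus strand for Fendrr, chr13:98353995-98354244 for Foxd1, chr13:31806396-31806645 for Foxc1 and chr13:31625566-31625815 for Foxf2, the last 3 on the plus strand. In the Fendrr window the capitals mark the forkhead motif TGTTTAC, read on the opposite strand as GTAAACA, with its first base at -129 from the start. The same motif, sought on both strands, was in 3.17% of the 32851 windows of the table. Of the 24 protein-coding members with a window, 1 (Foxa1) held it. The variant TGTTTGC was in the windows of 2 members (Foxj3 and Foxp1) and in 4.30% of all windows. In the Foxd1 window the capitals mark CCAAT at -192, and in the Foxc1 window the same box read on the opposite strand (ATTGG) at -101. Both of these windows also hold 1 match of GGGCGG, on either strand, which is left in lower case. CCAAT was in 33.8% of all windows and in those of 13 members. The capitals of the Foxf2 window mark 2 matches of GGGCGG, a motif found in 32.7% of all windows and in those of 18 members. TATAAA was in 12.4% of all windows and in those of 3 members. A match describes the letters only.

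Foxf1 had 9.96, 10.03, 10.14 and 10.12 in the ductus pools, against 7.01, 5.36, 6.17 and 5.82 in the aorta pools. Every ductus array was above every aorta array, and the aorta arrays were the more scattered. The means were 10.06 ± 0.085 in ductus and 6.09 ± 0.696 in aorta (SD, n = 4 each). The log2 difference was 3.97 ± 0.29 (SE), a 15.7-fold higher level in the ductus (limma adjusted p = 0.000105). Among all genes tested it was the 7th largest difference in favour of the ductus. Leaving out any single array gave differences between 3.73 and 4.28, all called.

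That result rests on 1 of the 2 Foxf1 probe sets. The probe set used was 1434939_at. The other, 1423013_at, read 2.65, 3.03, 3.21 and 3.10 in ductus against 2.54, 3.03, 3.16 and 3.24 in aorta. These values overlap and lie near the first quartile of the arrays, and their difference was 0.01 ± 0.18 (limma adjusted p = 0.993 over all probe sets). Averaging the 2 probe sets gave a difference of 1.99 (limma adjusted p = 6.76e-05).

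Of 10 measured markers of lung and airway epithelium, 2 were called, Cxcl15 and Scgb1a1, both higher in the ductus, beside 3.86% of all genes called. The mean over the 10 was 5.69, 4.99, 6.41 and 5.16 in ductus and 4.26, 3.94, 4.17 and 5.08 in aorta, so that the tissues overlapped at ductus replicate 2 and aorta replicate 4. Cxcl15, a chemokine of lung epithelium, had 10.65, 11.08, 11.37 and 11.34 in ductus against 5.95, 5.58, 5.63 and 6.70 in aorta, a difference of 5.15 ± 0.26 (limma adjusted p = 1.15e-05). Scgb1a1, the club cell secretory protein, differed by 3.05 ± 0.33 (limma adjusted p = 0.000992). The other markers of the list did not pass. Sftpb (0.82, limma adjusted p = 0.291), Slc34a2 (0.86, 0.652) and Sftpa1 (0.49, 0.566) were on the ductus side. So were Cdh1 (0.21, limma adjusted p = 0.734) and Ager (0.13, 0.847). Nkx2-1 (-0.10, limma adjusted p = 0.767) and Epcam (-0.06, 0.921) were on the aorta side. Nkx2-1 lay near the arrays' first quartiles in both tissues, where a small difference cannot be seen. Sftpc ran from 4.25 to 9.56 in ductus and from 3.92 to 7.38 in aorta, with overlap. In all, 8 of the 10 markers had a positive difference. The part of these markers in the Foxf1 difference was not tested.

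The gene next to Foxf1 was higher in the ductus too. Fendrr, a long non-coding RNA gene that in mice lies beside Foxf1, is transcribed away from it and is needed in lateral mesoderm, had 7.25, 7.33, 7.57 and 7.03 in ductus against 4.87, 4.15, 4.08 and 4.19 in aorta. All ductus values again exceeded all aorta values. The means were 7.29 ± 0.224 in ductus and 4.32 ± 0.370 in aorta (SD, n = 4 each), the aorta mean being close to the array medians. The difference was 2.97 ± 0.19, or 7.84-fold (limma adjusted p = 5.87e-05).

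By gene order on chromosome 8, Foxf1 stands between Fendrr and Mthfsd, a folate-enzyme domain gene, and is followed by Foxc2 and Foxl1. Mthfsd read 5.42, 4.61, 5.87 and 5.48 in ductus against 5.75, 5.59, 5.23 and 4.87 in aorta. The tissues overlapped, and the difference of -0.02 ± 0.28 took the other sign when the arrays were centred on their medians (0.02). Of the 17 genes measured in this stretch, 2 were called, Fendrr and Foxf1, beside 3.86% of all genes. Foxl1, a Hedgehog-responsive factor of gut mesenchyme, had 2.77, 2.76, 2.82 and 2.63 in ductus against 2.58, 2.52, 2.73 and 2.77 in aorta. Both its means lay within or under the range of the arrays' first quartiles, and the difference was 0.10 ± 0.10 (limma adjusted p = 0.717).

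**Figure D2:**
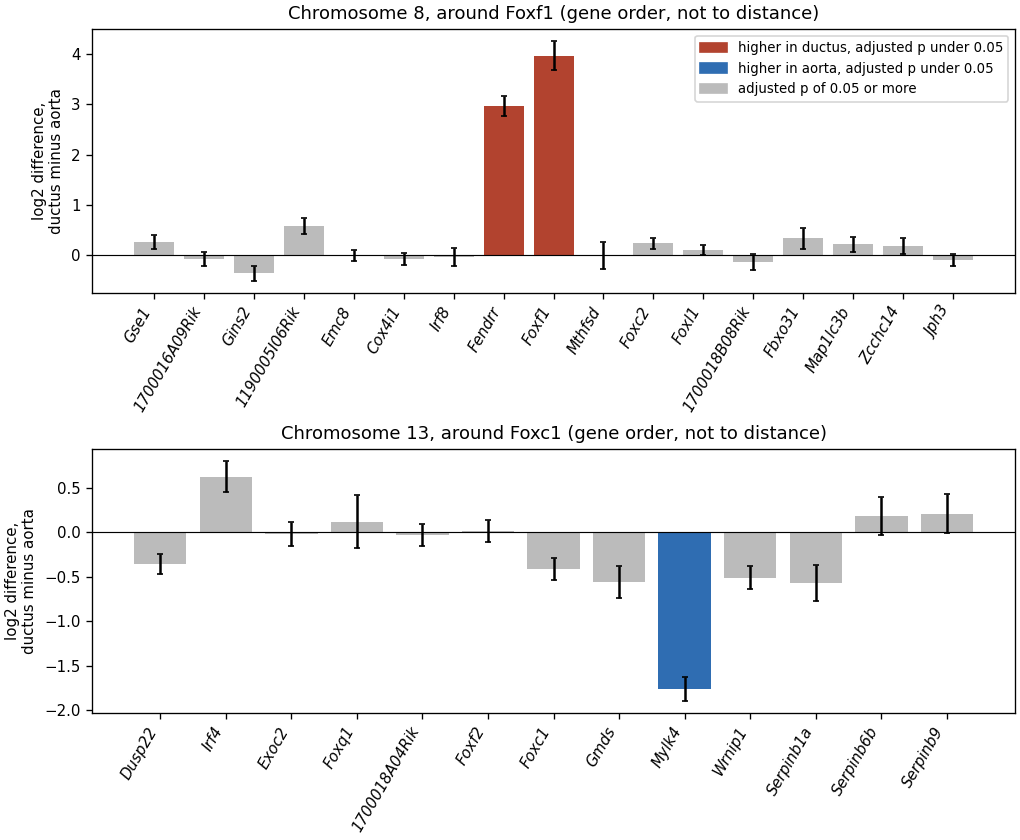
Log2 difference, ductus minus aorta (y axis), of the genes measured around Foxf1 on chromosome 8 and around Foxc1 on chromosome 13, in gene order and not to distance; bars on the columns are standard errors, and colour marks an adjusted p under 0.05. Fendrr (2.97) and Foxf1 (3.97) stand alone on chromosome 8, and Mylk4 (-1.76) is the gene called on chromosome 13.

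Foxf2, the paralogue of Foxf1 that acts in gut, palate and brain pericytes, was at 2.33, 2.45, 2.44 and 2.32 in ductus and at 2.45, 2.06, 2.53 and 2.44 in aorta. The tissues overlapped below the first quartile of every array, and the difference was 0.01 ± 0.12 (limma adjusted p = 0.976). At that level a small difference cannot be seen.

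Foxc1, a factor of neural crest, head mesenchyme and arch arteries, had 9.85, 10.03, 9.91 and 10.28 in ductus against 10.45, 10.46, 10.53 and 10.29 in aorta. Every ductus array was below every aorta array, but ductus replicate 4 and aorta replicate 4 nearly met. The difference was -0.41 ± 0.12, which did not pass (limma adjusted p = 0.108). Its second probe set, 1419486_at, read 6.93, 6.58, 6.61 and 6.73 in ductus and 7.01, 7.40, 7.26 and 7.36 in aorta, again without overlap. With the mean of both probe sets the difference was -0.48 and was called (limma adjusted p = 0.0219), as it was with a trended and robust variance prior (limma adjusted p = 0.0414). Those settings called 4% and 4.74% of all genes.

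Foxc2, which with Foxc1 patterns the arch arteries and the lymphatic valves, had 10.86, 10.90, 10.80 and 10.87 in ductus against 10.47, 10.57, 10.58 and 10.91 in aorta. Aorta replicate 4 was as high as the ductus arrays, and the other aorta arrays were lower. The difference of 0.23 ± 0.12 did not pass (limma adjusted p = 0.384). Foxc2 also acts in fat cells, and the markers of adipocytes ranged widely within both tissues, from 5.13 to 6.71 in ductus and from 4.31 to 7.89 in aorta, with 0 of 6 passing the limma test, adjusted or not. The 2 differences had opposite signs, and within arrays the Foxc1 difference was below that of Foxc2 by 0.64 (exact permutation test over 8 arrays, two-sided, p = 0.0571, adjusted over 12 pairs of forkhead genes 0.137). With 4 arrays against 4, 0.0286 is the smallest p that this test can give, and 0 of the 12 pairs passed after adjustment. Of the 12 pairs, 7 had an exact p of 0.143 or more. The limma test of the same differences called 5 pairs, Foxc1 and Foxc2 among them (adjusted p = 0.00717). In 2 of the 5, Foxf1 with Foxf2 and Foxd1 with Foxd3, the second gene was near or below the arrays' first quartiles, so that the pair repeats the single gene's difference.

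On chromosome 13, Foxc1 follows Foxq1 and Foxf2 in gene order and is followed by Gmds and Mylk4. Of the 13 genes measured there 1 was called, beside 3.86% of all genes. Mylk4, a gene of the myosin light chain kinase family, had 7.90, 7.73, 7.61 and 7.64 in ductus against 9.42, 9.37, 9.80 and 9.34 in aorta, a difference of -1.76 ± 0.13 (limma adjusted p = 0.000105). The tissues did not overlap. Gmds, which makes GDP-fucose, was at -0.56 ± 0.18 (limma adjusted p = 0.138), and Wrnip1, a helicase-interacting protein gene, at -0.51 ± 0.13 (limma adjusted p = 0.0631). Neither passed.

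Foxd1 marks stromal progenitors of the kidney, from which pericytes and vascular smooth muscle arise there. It had 4.41, 3.83, 4.45 and 3.27 in ductus, against 2.59, 2.90, 3.04 and 3.10 in aorta. The ductus arrays were all higher, with replicate 4 close to the aorta, whose values lay around the first quartile of the arrays. The means were 3.99 ± 0.556 in ductus and 2.91 ± 0.231 in aorta (SD, n = 4 each). The difference was 1.08 ± 0.25, at the edge of the threshold (limma adjusted p = 0.0496). No fold is given, because nothing on these arrays shows the aorta signal to exceed background. The call was lost on leaving out any single array except ductus replicate 4, with adjusted p between 0.0763 and 0.130 (limma), and was kept without that array, at 1.32 (limma adjusted p = 0.0109). It was also lost with array weights (limma adjusted p = 0.0612) and with every probe set tested (0.0538).

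The other Foxd genes were low in both tissues. Foxd2 had 3.22, 3.58, 3.43 and 3.75 in ductus against 3.41, 3.81, 3.52 and 4.27 in aorta. Foxd3, which holds neural crest cells and Schwann cell precursors in an early state, had 2.52, 2.65, 2.77 and 2.79 in ductus against 2.77, 2.77, 2.77 and 2.65 in aorta. Foxd4 had 2.14, 2.23, 2.36 and 2.20 in ductus against 2.41, 2.35, 2.41 and 2.46 in aorta. All 3 overlapped between the tissues. Their differences were -0.26, -0.06 and -0.18, with limma adjusted p of 0.591, 0.850 and 0.401, and the second probe set of Foxd2 gave 0.06. The Foxd1 difference exceeded that of Foxd2, also under the array medians in both tissues, by 1.34 (exact permutation p = 0.0571, adjusted over the pairs 0.137). Of 6 measured Schwann cell markers, Foxd3 among them, 2 (Cdh19 and S100b) were called higher in the ductus, beside 3.86% of all genes called. That count ran from 0 to 2 over the alternatives and from 1 to 2 over left-out arrays. Fabp7 (0.98), Erbb3 (0.23), Sox10 (0.10) and Foxd3 did not pass. The mean over the 6 was 4.49 to 4.74 on ductus arrays and 4.11 to 4.32 on aorta arrays. Cdh19 was low, at 3.27 in ductus and 2.58 in aorta on average.

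**Figure D3:**
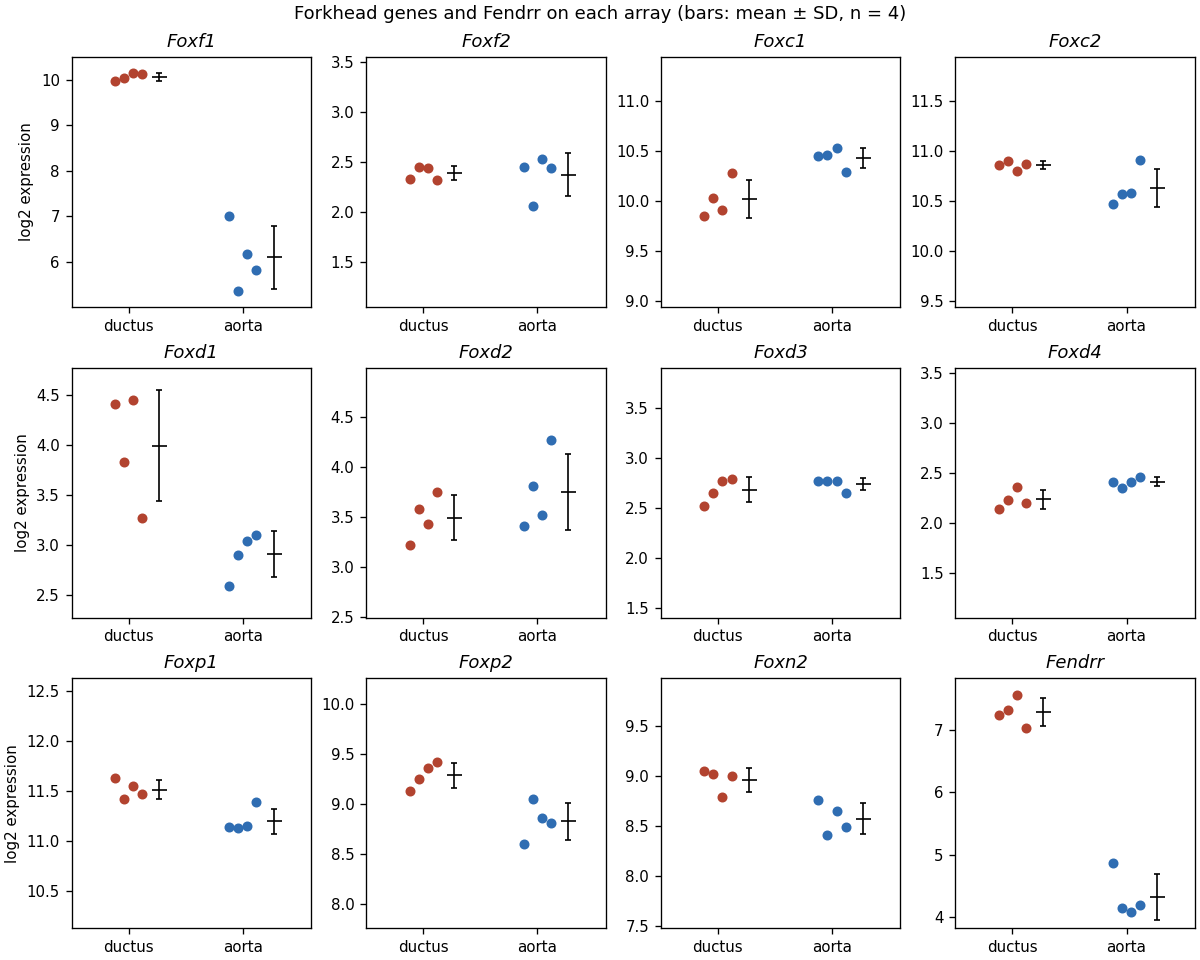
Log2 expression (y axis, a separate scale in each panel) of 11 forkhead genes and Fendrr on each ductus array (red) and each aorta array (blue); the cross beside each group is its mean with the SD over 4 arrays. Foxf1 and Fendrr separate widely, Foxd1 separates at a low level, and Foxf2 overlaps between the tissues.

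The Foxp genes repress transcription in lung, heart and brain. Foxp2 had 9.13, 9.25, 9.36 and 9.42 in ductus against 8.60, 9.05, 8.86 and 8.81 in aorta. All ductus values were higher, by a narrow gap. The difference was 0.46 ± 0.12, the nearest to the threshold of the members not called (limma adjusted p = 0.0823), and 5 of its 6 probe sets pointed the same way. Foxp1, which in mice is needed for cardiac outflow septation, had 11.63, 11.42, 11.55 and 11.47 in ductus against 11.14, 11.13, 11.15 and 11.39 in aorta. The tissues did not overlap, though aorta replicate 4 lay near the ductus arrays. The difference was 0.32 ± 0.11 (limma adjusted p = 0.161), and it was called with a trended and robust variance prior (0.0385).

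All 8 Foxp1 probe sets were higher in the ductus on average. Tested on its own, 1421142_s_at read 7.91, 7.60, 8.01 and 8.08 in ductus against 7.24, 7.16, 7.27 and 7.48 in aorta, a difference of 0.61 ± 0.13 (limma adjusted p = 0.0419 over all probe sets, at which 2.86% of probe sets were called). Taken as the gene's most variable probe set it was also called (limma adjusted p = 0.0434), where 4.22% of genes were. The probe sets of a gene share its transcripts and are not replicates. Foxp4 had 7.41, 7.49, 7.74 and 7.56 in ductus against 7.28, 7.39, 6.74 and 7.53 in aorta, with overlap and a difference of 0.32 ± 0.17 (limma adjusted p = 0.420). Foxp3, the factor of regulatory T cells, ran from 2.97 to 3.12 in ductus and from 3.07 to 3.56 in aorta. Thymocyte markers varied from array to array within both tissues, with means of 4.07 to 7.58 in ductus and 3.64 to 6.80 in aorta. All 9 had a positive difference, with a median of 1.29, and 0 of 9 passed the limma test, adjusted or not.

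**Figure D4:**
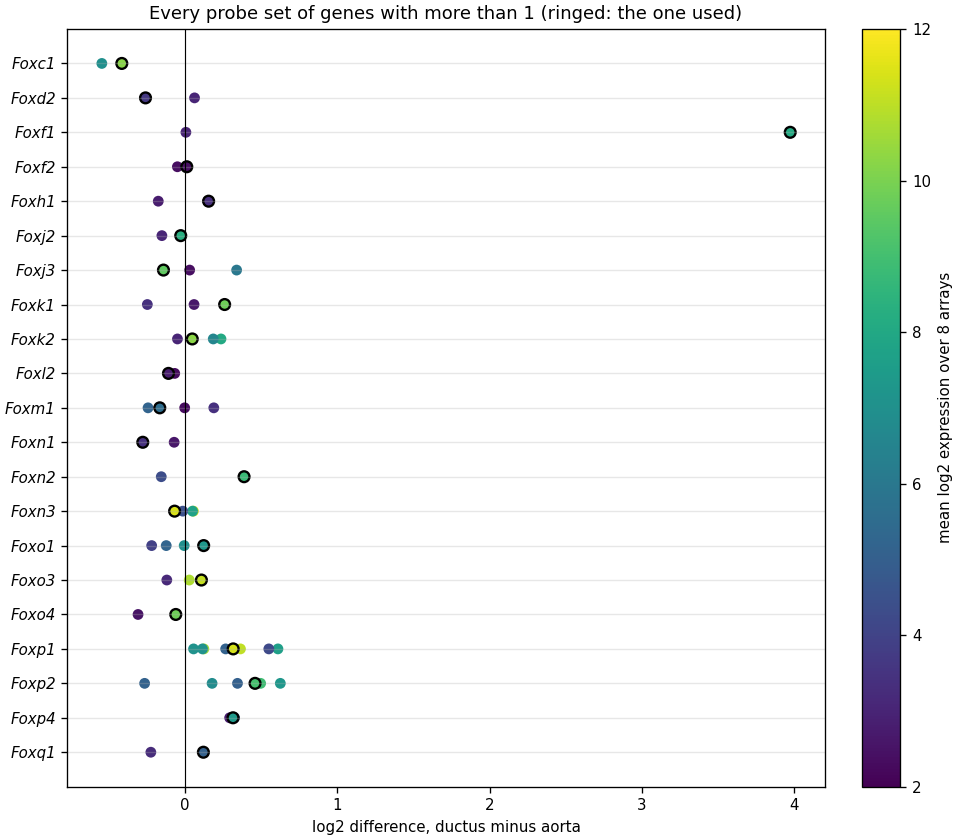
Log2 difference, ductus minus aorta (x axis), of every probe set of the 21 genes with more than 1 (rows); the ringed point is the probe set used for the gene and the colour is its mean log2 level over the 8 arrays. The 2 Foxf1 probe sets stand apart, at 3.97 and 0.01, while the 8 of Foxp1 all lie above 0.

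The Foxn and Foxk genes are broadly expressed, apart from Foxn1 and Foxn4. Foxn2 had 9.05, 9.02, 8.79 and 9.0 in ductus against 8.76, 8.41, 8.65 and 8.49 in aorta. The tissues did not overlap, and the difference of 0.39 ± 0.12 did not pass (limma adjusted p = 0.121). Its second probe set, lower in level, gave -0.16. Foxn3, a checkpoint repressor, had 11.38, 11.48, 11.32 and 11.38 in ductus against 11.45, 11.33, 11.48 and 11.58 in aorta, a difference of -0.07 ± 0.10. The difference of Foxn2 exceeded that of Foxn3 by 0.46 (exact permutation p = 0.0286, adjusted over the pairs 0.114), a sign that turned with the most variable probe sets (-0.14). Foxk1, a regulator of myogenic progenitors and autophagy genes, had 9.85, 10.02, 9.83 and 10.07 in ductus against 9.78, 9.60, 9.78 and 9.56 in aorta, without overlap. Its difference was 0.26 ± 0.11 (limma adjusted p = 0.273), and the probe set with the largest interquartile range gave -0.25. Foxk2 differed by 0.05 ± 0.11 (limma adjusted p = 0.891).

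The Foxo genes, which switch on stress, arrest and atrophy genes when Akt signalling is low, overlapped between the tissues. Foxo1 had 7.39, 7.20, 7.56 and 7.24 in ductus against 6.84, 7.39, 7.30 and 7.36 in aorta. Foxo3 had 11.18, 11.21, 11.18 and 11.07 in ductus against 11.09, 11.15, 10.86 and 11.12 in aorta. The differences were 0.12 ± 0.15 and 0.11 ± 0.10, and neither passed (limma adjusted p = 0.760 and 0.685). Foxo4 ran from 9.42 to 10.17 in ductus and from 9.38 to 10.24 in aorta.

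Of 21 genes that Foxo factors are known to switch on, 1 was called, lower in the ductus, beside 3.86% of all genes. That gene was Trim63, the muscle ubiquitin ligase MuRF1, with 4.30, 4.19, 3.78 and 4.41 in ductus against 5.30, 5.06, 4.83 and 5.11 in aorta. It did not overlap, and the difference was -0.91 ± 0.16 (limma adjusted p = 0.0125). Skeletal muscle markers averaged 4.57, 4.26, 6.24 and 4.42 in ductus and 3.87, 3.75, 3.73 and 4.15 in aorta, with ductus replicate 3 far above the rest. Of the 10, 1 (Des) was called higher in the ductus, beside 3.86% of all genes called. That count ran from 0 to 2 over the alternatives. Des ran from 6.71 to 7.72 in ductus and from 4.53 to 5.14 in aorta, so its difference did not rest on ductus replicate 3. Smooth muscle markers were higher in the ductus too (4 of 9 called), and their part in the Des difference was not tested. Myog and Myh3 reached 6.65 and 7.77 on ductus replicate 3 and did not pass. Ckm (0.03) and Actn3 (-0.08) barely differed, and 9 of the 10 markers had a positive difference. The cell cycle inhibitor Cdkn1b (0.50, limma adjusted p = 0.0607) and the stress gene Gadd45a (1.05, 0.0754) were on the ductus side without passing. Pdk4, which restrains glucose oxidation, was on the aorta side (-0.38, 0.0683). At an unadjusted p under 0.05 in limma, 8 of the 21 passed, 2 higher in the ductus and 6 lower, beside 16.1% of all genes. The median of the list was -0.18. Of 14 regulators of Foxo factors 0 passed and 2 had an unadjusted p under 0.05 in limma, the deacetylase Sirt1 (0.42) and the kinase Akt2 (-0.31).

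Members known from epithelium, thymus, cilia or dividing cells did not pass. Foxa1 and Foxa2, of airway and gut epithelium, ran from 2.58 to 3.94 and from 2.50 to 3.45 in ductus, against 2.51 to 3.69 and 2.76 to 3.31 in aorta. Foxj1, the master factor of motile cilia, ran from 2.39 to 2.71 in ductus and from 2.40 to 2.78 in aorta. Foxn1, of thymic epithelium, ran from 2.99 to 3.31 in ductus and from 3.31 to 3.75 in aorta. Foxm1, a driver of mitotic genes, ran from 5.20 to 5.59 in ductus and from 5.46 to 5.77 in aorta. Of 14 genes known to depend on Foxm1 0 passed and 1, the centromere histone Cenpa (0.30, limma adjusted p = 0.205), had an unadjusted p under 0.05 in limma. Marker lists of ciliated cells (0 of 7 passed, 1 at an unadjusted p under 0.05) and thymic epithelium (0 of 9, with 2 unadjusted) had no call in limma either. Over all genes, 16.1% had an unadjusted p under 0.05.

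Foxj3, a broadly expressed factor, was one of the 2 members with every aorta value above every ductus value, narrowly, at 9.37 to 9.53 in ductus and 9.54 to 9.70 in aorta (limma adjusted p = 0.544). Its other probe sets, 1438220_at and 1459055_at, had differences of 0.34 and 0.03, with overlap. In all, 20 members had both means under the lowest array median, and 10 of them had both means under the highest first quartile. At such levels the arrays cannot show a small difference. The 20 members given by range or not described singly had differences of -0.28 to 0.18 and limma adjusted p of 0.355 to 0.974.

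Genes upstream and beside Foxf1 were read next. In the Hedgehog pathway, which induces Foxf1 in lung and gut, 0 of 15 measured genes passed. Of the 15, 5 had an unadjusted p under 0.05 in limma, 1 higher in the ductus and 4 lower, beside 16.1% of all genes. Dhh, the Hedgehog ligand of Schwann and endothelial cells, had 8.96, 9.01, 8.93 and 9.27 in ductus against 10.00, 9.87, 9.28 and 10.24 in aorta. Its values did not overlap, by a narrow margin, and the difference of -0.81 ± 0.19 stood just short of the threshold (limma adjusted p = 0.0547). The ligand Shh was at -0.35 (limma adjusted p = 0.110) from levels near 3, the effector Gli3 at 0.36 (0.135) and the pathway's readout gene Gli1 at -0.79 (0.174). The median of the list was -0.08.

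Of 15 genes of lung and gut mesenchyme, 1 was higher in the ductus, Fendrr itself, and 1 was lower, the ligand Wnt5a, beside 3.86% of all genes. Wnt5a had 7.09, 7.37, 6.89 and 7.12 in ductus against 8.09, 7.56, 7.73 and 7.97 in aorta, a difference of -0.72 ± 0.15 (limma adjusted p = 0.0292). Its values did not overlap, but 5 of the 8 single-array omissions ended the call (ductus replicates 1, 3 and 4, aorta replicates 1 and 4), with adjusted p up to 0.0802, as did centring the arrays on their medians (0.0821) or normalizing them again (0.0611). Tcf21, a factor of visceral mesenchyme and epicardium, was at -0.72 (limma adjusted p = 0.0778). Fgf7, a growth factor that mesenchyme sends to epithelium, had 4.65, 5.27, 4.56 and 4.75 in ductus against 4.03, 4.55, 3.47 and 3.70 in aorta, just without overlap (0.87 ± 0.24, limma adjusted p = 0.0893). At an unadjusted p under 0.05, 3 genes of the list were higher in the ductus and 3 lower, beside 16.1% of all genes.

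Of 19 regulators of the arteries and outflow tract, 3 were higher and 2 lower in the ductus, beside 3.86% of all genes called. Sox9, a factor of cartilage and valve mesenchyme, had 8.60, 8.54, 8.62 and 8.74 in ductus against 7.05, 6.41, 6.43 and 6.84 in aorta, a difference of 1.94 ± 0.16 (limma adjusted p = 0.00016). The paired-related homeobox genes Prrx2 (1.62 ± 0.24, limma adjusted p = 0.00602) and Prrx1 (0.74 ± 0.12, 0.00828), which act together in the mesenchyme of the great vessels in mice, were also higher. Of 8 cartilage markers, Sox9 among them, 1 (Sox9) was called higher in the ductus. From that list Hapln1 (-1.03, limma adjusted p = 0.00167) and Acan (-1.69, 0.00447) were called lower, beside 3.86% of all genes called. Hand2 had 3.92, 3.23, 4.06 and 3.20 in ductus against 5.30, 5.58, 4.89 and 4.97 in aorta, a difference of -1.58 ± 0.24 (limma adjusted p = 0.00574). Gata4, a zinc finger factor of heart and mesothelium, differed by -1.90 ± 0.34 (limma adjusted p = 0.013). With the mean over probe sets these differences were smaller and still called, at 0.98 for Sox9, -1.05 for Hand2 and -0.93 for Gata4. The part of the mesothelial markers, which were lower in the ductus too, was not tested.

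Among 11 Hippo and Notch genes tied to forkhead factors, 2 were higher in the ductus and 0 lower, beside 3.86% of all genes called. Tead1, the DNA-binding partner of Yap, had 9.91, 9.78, 9.81 and 10.05 in ductus against 9.22, 9.11, 9.30 and 8.98 in aorta, a difference of 0.73 ± 0.11 (limma adjusted p = 0.00657). The Yap and Tead target Ccn1 differed by 0.73 ± 0.12 (limma adjusted p = 0.00862), and by 1.49 with the mean over its probe sets or 1.98 with the most variable one. In this list 5 genes had an unadjusted p under 0.05 in limma, 3 higher in the ductus and 2 lower, beside 16.1% of all genes.

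**Figure D5:**
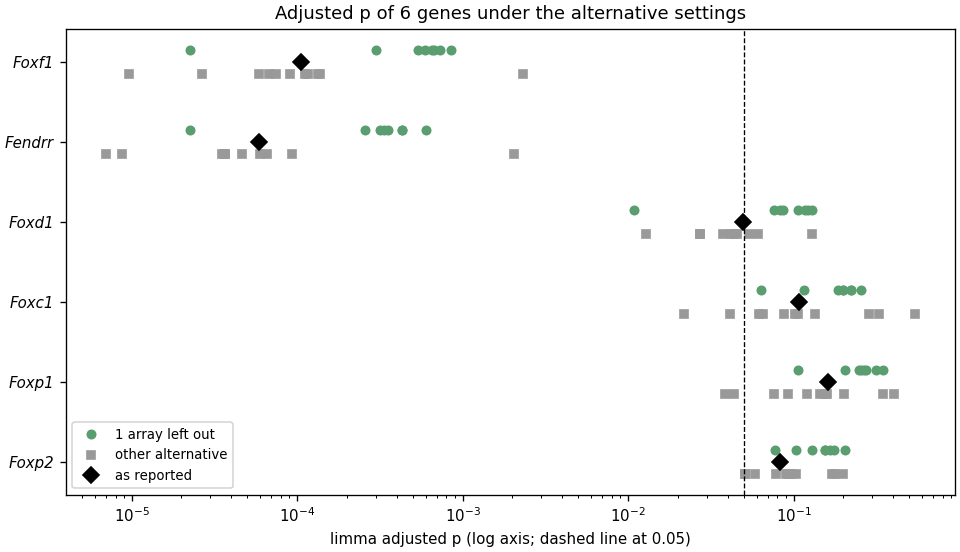
Limma adjusted p (x axis, log scale, dashed line at 0.05) of 5 forkhead genes and Fendrr (rows) as reported (diamonds), with 1 array left out (green) and under the other alternatives (grey squares; the test against log2 0.5 is not drawn). Foxf1 and Fendrr stay left of the line throughout, Foxd1 straddles it, and Foxc1, Foxp1 and Foxp2 lie mostly to its right.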

How the data were processed

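Affymetrix mouse expression arrays of total RNA gave the values, 1 per pool. The deposited values are log2 expression, made with Partek 6.6 and RMA (robust multi-array averaging) per the submitters' processing notes; how these were set is not given in the sources used here. In all, 45101 probe sets were listed, with 0 missing values. Control probe sets (64), those not listed in the annotation used (9160) and those with several symbols (932) were left out of gene tests. The remaining 34945 gave 18193 genes, each by its probe set of highest mean, with no low-value filter.

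Tissues were compared with limma 3.58.1 (lmFit, eBayes, two-sided, no covariate) in R 4.3.3, and p-values were adjusted by Benjamini-Hochberg over all genes. The threshold for a call was an adjusted p of 0.05. Differences between paralogues were tested exactly over the arrays (scipy 1.17.1). The fit was tested on simulated data. With 1 pool per array, p-values reflect the spread among pools within a tissue, and precision is limited by the number of arrays. The sample labels do not say whether a ductus pool and an aorta pool shared a litter. The main fit treated all arrays as unpaired. Detection calls were not used here.

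The members and lists were chosen with earlier results of these data known. Called members, those of their subfamilies and the next 4 were given on every array, and up to 4 genes of each list were named; Gata4 and the markers named were chosen after their values were seen, as were the other members given on every array. Scaling, filters, choice of probe set, variance prior, array weights, replicate block, threshold and left-out arrays were varied. Platform symbols were updated through the RefSeq gene table by gene ID.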

Additional observations from a re-analysis of the deposited data

Results flagged for a closer look

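In 11 of the 132 groups of 4 arrays checked (the levels of the genes described), 1 array lay far from the other 3, with a gap past Dixon's critical value for 4 arrays, and chance marks about 1 in 20 groups. Aorta replicate 1 stood apart in Fendrr (4.87, others 4.08 to 4.19), in Foxo1 (6.84, others 7.30 to 7.39) and in Cenpa (8.16, others 8.34 to 8.37). Aorta replicate 4 stood apart in Foxp1 (11.39, others 11.13 to 11.15), in Foxd3 (2.65, others at 2.77) and in Scgb1a1 (3.96, others 3.05 to 3.13). Aorta replicate 2 stood apart in Tcf21 (6.06, others 5.33 to 5.43). Of the ductus arrays, replicate 1 stood apart in Foxk2 (10.10, others 10.36 to 10.38), replicate 2 in Foxj3 (9.37, others 9.5 to 9.53), and replicate 3 in Foxl2 (3.10, others 2.52 to 2.62) and Foxn1 (2.99, others 3.30 to 3.31).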

How the results depend on the processing

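Foxf1 was called under all 20 alternatives (differences of 1.99 to 4.28) and Fendrr under all 19 that gave it a value (2.88 to 3.15). The count of members higher in the ductus was 1 in place of 2 for genes above log2 6 (a filter that removes Foxd1), with every probe set tested, with array weights, against log2 0.5 (treat) and at an adjusted p under 0.01, and ran from 1 to 2 over left-out arrays. It was 3 with the most variable probe set and with the trended and robust prior, the added gene being Foxp1. The count higher in the aorta was 1 in place of 0 with the mean over probe sets and with a trended and robust prior, the gene being Foxc1. Over all genes, 702 calls became 179 against log2 0.5, 304 at an adjusted p under 0.01, 388 with an absolute difference of at least 1, 454 without ductus replicate 4 and 443 without aorta replicate 2. Testing against log2 0.5 also ended the calls of Trim63, Wnt5a, Hand2, Gata4, Prrx1, Prrx2, Tead1 and Ccn1. Called genes ran from 0 to 4 among Foxo targets, 0 to 1 in the Hedgehog pathway, 1 to 3 in lung and gut mesenchyme, 1 to 7 among outflow regulators, 0 to 5 among Hippo and Notch genes, 4 to 10 among mesothelial, 0 to 6 among endothelial, 1 to 4 among smooth muscle, 0 to 2 among Schwann cell and 0 to 2 among skeletal muscle markers.

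Whether the replicate numbers pair the samples cannot be told from the arrays. Deviations of same-numbered arrays from their tissue means correlated at -0.068, -0.148, -0.191 and -0.227. With 4 arrays per tissue such deviations cancel within a tissue, so these correlations cannot settle the pairing. Across numbers, ductus replicates 1, 2, 3 and 4 correlated highest with aorta replicates 4, 1, 2 and 3, at 0.342, 0.188, 0.295 and 0.280. A pairing in that order was not tested. With the replicate number as a block, 1 member was called higher in the ductus and 403 genes in all. Foxf1 kept 3.97 (limma adjusted p = 0.00231), while Foxd1 (0.13), Wnt5a (0.108), Tead1 (0.0561) and Gata4 (0.0619) did not pass.

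Of single genes, only uncalled ones turned in sign; of pairs, Foxn2 and Foxn3, called by limma but not by the exact test, also turned. Taking the most variable probe set (largest interquartile range) turned Foxf2 (-0.0498), Foxn2 (-0.156), Foxo1 (-0.0052), Foxo3 (-0.119), Foxk1 (-0.247), Foxk2 (-0.0494) and Shh (0.0343), and the pairs Foxk1 and Foxk2 (-0.198), Foxn2 and Foxn3 (-0.141) and Foxj2 and Foxj3 (-0.491). The mean over probe sets turned Foxf2 (-0.019), Foxn3 (0.0056) and Foxo1 (-0.0561), and the pairs Foxo1 and Foxo3 (-0.0617), Foxp1 and Foxp4 (-0.0109), Foxk1 and Foxk2 (-0.0689) and Foxj2 and Foxj3 (-0.166). Mthfsd turned with centred arrays (0.0241, also with the replicate block) and with repeated quantile normalization (0.0234). Over left-out arrays Foxf2 ran from -0.0908 to 0.065, Foxo1 from -0.0039 to 0.177 and Mthfsd from -0.192 to 0.230. The causes were not tested.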
